A study of Mus musculus with 6 samples.

Results

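Retinoic acid synthesis, breakdown and binding was examined through 9 genes in the testes of WT and Trf2-/- mice. The genes were chosen by name for their roles, and all 9 were found among the 26743 genes of the deposited count table. They are the retinaldehyde dehydrogenases Aldh1a1, Aldh1a2 and Aldh1a3, the retinol dehydrogenase Rdh10, the retinoic acid hydroxylases Cyp26a1 and Cyp26b1, the retinol transporter Stra6 and the cellular retinoic acid binding proteins Crabp1 and Crabp2. Total RNA came from whole testes of 3 WT and 3 Trf2-/- mice taken at day 21 after birth, with 1 library for each mouse. Day 21 is when round spermatids appear in the first wave of spermatogenesis. Trf2-/- males lack the TBP-related factor encoded by Tbpl1 and are sterile, with an arrest of spermatogenesis at the spermatid stage. The study's methods name a 129/SvPas background where they describe its tagged Trf2 mice, without saying whether this covers the WT and Trf2-/- mice. Litters and the exons removed by the mutation are not given in the sources used here.

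Retinoic acid is made from retinol in 2 oxidation steps. RDH10 turns retinol into retinaldehyde, and the ALDH1A enzymes turn retinaldehyde into retinoic acid. STRA6 brings retinol into the cell, CRABP proteins bind retinoic acid in the cytoplasm, and the CYP26 enzymes break it down. Retinoic acid acts through the RAR and RXR nuclear receptors. In the testis it drives the differentiation of spermatogonia and the entry into meiosis, in part through Stra8. Aldh1a1 is known from Sertoli cells, Aldh1a2 from spermatocytes and spermatids, and Cyp26b1 from the peritubular myoid cells around the tubules.

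Reads counted on genes ranged from 15187062 to 29859347 per mouse. The limit set by a count of 0, taken as 3 counts, was 0.105 to 0.190 CPM (counts scaled to library size with TMM factors), which covers counting error only. The inactivated gene Tbpl1 stood at 308, 283 and 294 CPM in WT mice 1 to 3 and at 62.9, 64.3 and 55.8 CPM in Trf2-/- mice 1 to 3. Its log2 fold change was -2.27 (SE 0.06, adjusted p = 1.18e-06, edgeR's quasi-likelihood test). Of the 16924 genes that passed the filter on low counts, 3423 were lower and 1889 higher in Trf2-/- testis at an adjusted p under 0.05, so that 64.4% of the changed genes were lower. With scaling by library size alone this share was 38.7%, so the direction of small changes depends on the scaling. The median log2 fold change over all tested genes was 0.04 with TMM factors and 0.13 with library size.

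The retinoic acid genes changed little. Of the 8 that were tested, Aldh1a2 fell and Aldh1a3 rose at an adjusted p under 0.05, which leaves 6 that did not pass. Among all tested genes 20.2% were lower and 11.2% higher by the same rule, 31.4% together, so 2 of 8 was not above the background. No member changed by 2-fold or more (0 lower and 0 higher by edgeR or DESeq2), where 4.3% of tested genes were lower and 0.609% higher at that size. At an unadjusted p under 0.05 edgeR also gave 1 lower and 1 higher. For 3 of the 8 genes, Aldh1a2, Aldh1a3 and Rdh10, WT and Trf2-/- values did not overlap, whereas 49.2% of all tested genes showed no overlap. The median log2 fold change of the 8 genes was 0.11. Crabp2, the remaining member, had between 3 and 11 counts per mouse and was not tested.

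**Figure D1:**
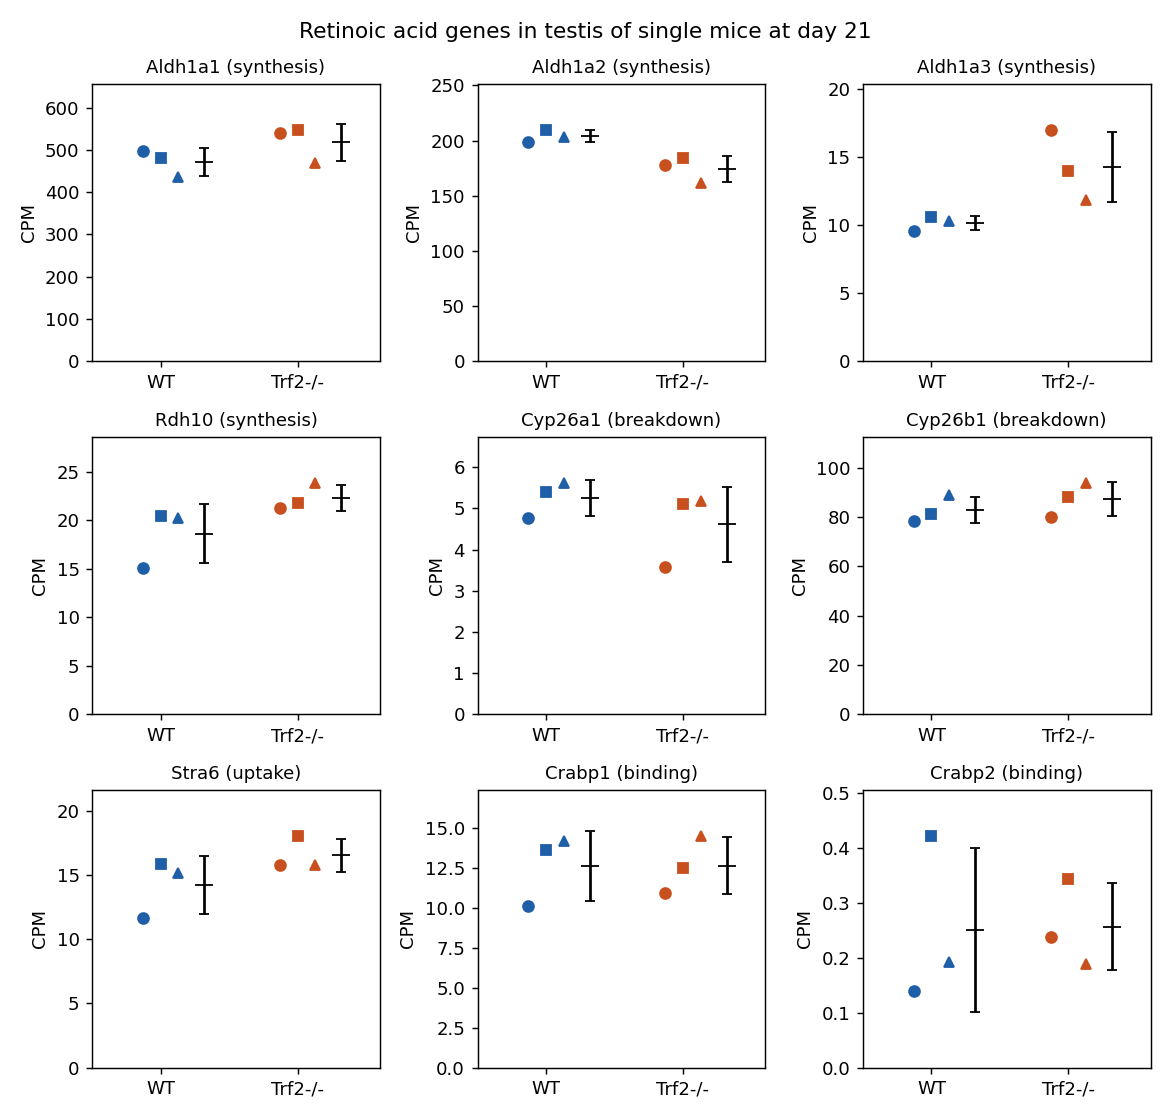
Level of each retinoic acid gene in CPM (vertical axis, starting at 0) in the 3 WT and 3 Trf2-/- mice. Circles, squares and triangles are mice 1, 2 and 3 and black bars are the mean ± SD; Aldh1a2 is lower in each Trf2-/- mouse (162 to 184 CPM) than in any WT mouse (199 to 210 CPM), and Aldh1a3 is higher (11.9 to 17.02 against 9.58 to 10.6 CPM).

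The levels of the genes spanned nearly 3 orders of magnitude. On a scale that can be compared between genes, CPM per kilobase of gene length (RPKM), Aldh1a1 was the highest in WT testis at 230 ± 15.9 (SD, n = 3 mice) and lay at percentile 99.3 of the tested genes. Aldh1a2 followed at 90.1 ± 2.39 RPKM. Cyp26b1 at 18.0 ± 1.18 and Crabp1 at 15.7 ± 2.71 RPKM came next, and their ranges over the WT mice overlapped. Rdh10 was at 5.19 ± 0.845 RPKM. Stra6 at 3.20 ± 0.506 and Cyp26a1 at 2.97 ± 0.246 RPKM could not be ordered beyond their spread. Aldh1a3 was at 2.29 ± 0.119 RPKM and Crabp2 at 0.269 ± 0.161 RPKM.

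In Trf2-/- testis the order was the same down to Stra6, after which Aldh1a3 at 3.23 ± 0.582 RPKM stood above Cyp26a1 at 2.61 ± 0.512 RPKM, with overlapping ranges. Aldh1a1 was 2.55 times the level of Aldh1a2 in WT and 3.27 times in Trf2-/- testis. The lengths are those of the deposited table, which gives 1 length for each gene. For Stra6 that length was 4441 bases, while its 14 annotated transcripts cover 5829 exonic bases. The deposited length was also the shorter for Rdh10 (3587 against 4160 bases), Aldh1a3 (4432 against 4615) and Crabp2 (931 against 1322), so these levels depend on it.

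**Figure D2:**
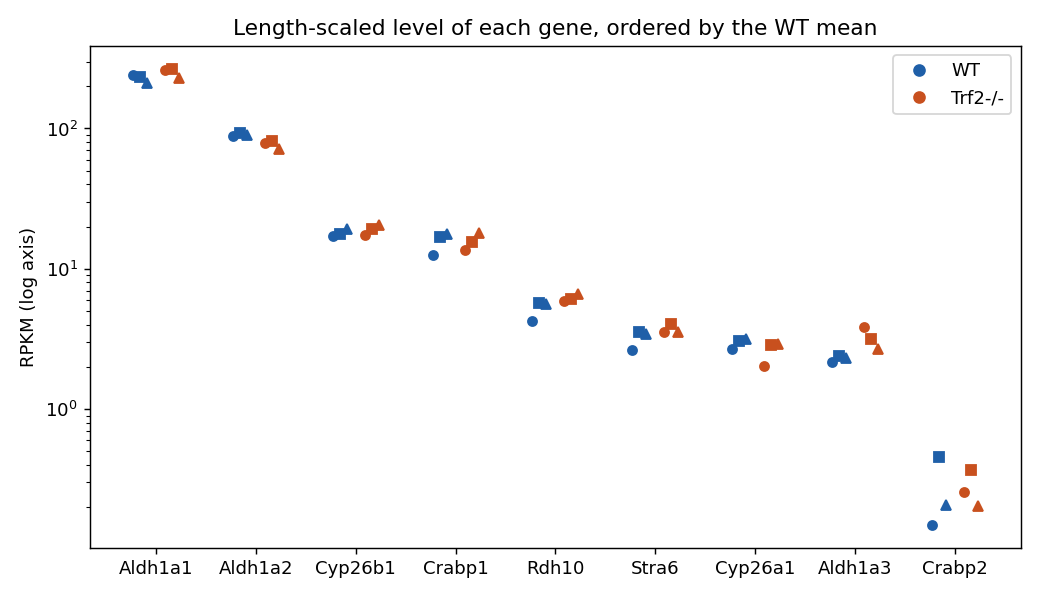
RPKM of each gene on a log axis, ordered from left to right by the WT mean, with WT mice in blue and Trf2-/- mice in orange. Aldh1a1 and Aldh1a2 stand above the other genes in all 6 mice, and Crabp2 stands below them.

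Among the enzymes of synthesis, Aldh1a2 was the only one to fall. It lies on chromosome 9 of NCBIM37 from 71063596 to 71144050, with no overlapping gene in the annotation. Its level was 199, 210 and 204 CPM in WT mice 1 to 3, against 178, 184 and 162 CPM in Trf2-/- mice 1 to 3. All 3 Trf2-/- mice were below all 3 WT mice, with the lowest value in mouse 3. The WT mean was 204 ± 5.42 CPM and the Trf2-/- mean 175 ± 11.7 CPM (SD, n = 3 mice each). This decrease of 14.4% was a log2 fold change of -0.22 (SE 0.06, 95% interval -0.35 to -0.10, adjusted p = 0.016, edgeR's quasi-likelihood test). DESeq2's Wald test gave -0.23 (adjusted p = 0.0104). Without WT mouse 2 the adjusted p from edgeR was 0.0705, and with scaling by library size it was 0.0844 at a log2 fold change of -0.13. Without Trf2-/- mouse 3 the log2 fold change was -0.17 (adjusted p = 0.0178, edgeR).

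The sequence upstream of Aldh1a2 is shown as the promoter of the member that fell. The 100 bases before its RefSeq start site (GRCm38.p6, chr9:71215689-71215788, plus strand) are GC-rich, at 71.0% G and C. None of the motifs searched, which are given with Cyp26a1, was found in the 250 bases before this start site, so no base is in capitals.

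Aldh1a2 upstream: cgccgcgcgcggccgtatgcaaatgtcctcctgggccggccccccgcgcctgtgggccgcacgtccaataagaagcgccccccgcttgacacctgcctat

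Aldh1a1, on chromosome 19 from 20676451 to 20717952, was at 498, 482 and 435 CPM in WT, against 539, 547 and 468 CPM in Trf2-/- mice. The genotypes overlapped, as Trf2-/- mouse 3 lay below WT mice 1 and 2. The log2 fold change was 0.14 (SE 0.07, 95% interval -0.03 to 0.30, adjusted p = 0.179, edgeR). Without Trf2-/- mouse 3 it was 0.21 (adjusted p = 0.0171, edgeR), and with library size scaling 0.23 (adjusted p = 0.0263, edgeR). Aldh1a7 is a close paralog of Aldh1a1 on the same chromosome, and reads that fit both could be split or lost by the counting. Its log2 fold change was 0.12, with an adjusted p of 0.581 (edgeR).

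Aldh1a3 rose and was the member with the largest fold change. It is the least abundant of the 3 dehydrogenases and lies on the minus strand of chromosome 7 from 73535778 to 73572403. Its reads numbered 275, 277 and 215 in WT mice 1 to 3, against 429, 327 and 188 in Trf2-/- mice 1 to 3. After scaling these were 9.58, 10.6 and 10.3 CPM in WT and 17.02, 14.02 and 11.9 CPM in Trf2-/- testis. Each Trf2-/- mouse was above each WT mouse, but the Trf2-/- values were spread more widely, with a coefficient of variation of 18.0% against 5.20%. The log2 fold change was 0.50 (SE 0.13, 95% interval 0.20 to 0.80, adjusted p = 0.0206, edgeR), an increase of 41.6%.

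The call for Aldh1a3 was lost in 5 of the 6 fits that left out a mouse. Leaving out any mouse except Trf2-/- mouse 3 raised the adjusted p from edgeR above 0.05, to 0.0815, 0.0559 and 0.056 without WT mice 1, 2 and 3 and to 0.0734 and 0.0527 without Trf2-/- mice 1 and 2. Without Trf2-/- mouse 1, the mouse with the highest level, the log2 fold change was 0.34. DESeq2's Wald test on all mice gave an adjusted p of 0.00888. Without Trf2-/- mouse 3 the log2 fold change was 0.62 (adjusted p = 0.00337, edgeR).

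Rdh10, which carries out the first oxidation step, is on chromosome 1 from 16095855 to 16123815. Its values were 15.1, 20.5 and 20.2 CPM in WT and 21.3, 21.8 and 23.8 CPM in Trf2-/- testis. They did not overlap, and WT mouse 1 was lower than the other WT mice. The log2 fold change of 0.26 (SE 0.12, 95% interval -0.01 to 0.53) had an adjusted p of 0.126 from edgeR. With scaling by library size it was 0.36 (adjusted p = 0.0448, edgeR), and without WT mouse 1 it was 0.13.

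Ratios of 2 genes within a mouse do not depend on the scaling between libraries. The length-scaled ratio of Aldh1a2 to Aldh1a1 was 0.363, 0.395 and 0.424 in WT, against 0.299, 0.305 and 0.313 in Trf2-/- mice. The Trf2-/- mice were all below the WT mice and close to each other. Aldh1a2 made up 28.0 ± 1.57% of the summed level of the 3 dehydrogenases in WT and 23.2 ± 0.437% in Trf2-/- testis (SD, n = 3 mice each). The share of Aldh1a1 was 71.3 ± 1.63% and 75.8 ± 0.330%, and that of Aldh1a3 0.714 ± 0.0585% and 0.967 ± 0.126%.

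The summed level of the 3 dehydrogenases was 322 ± 15.7 RPKM in WT and 333 ± 26.7 RPKM in Trf2-/- testis. Their ratio to the summed level of the 2 hydroxylases was 16.8, 15.9 and 13.5 in WT, against 17.8, 15.9 and 12.97 in Trf2-/- mice. These ratios overlapped almost entirely between the genotypes. They compare transcripts, since neither enzyme activity nor retinoic acid was measured.

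**Figure D3:**
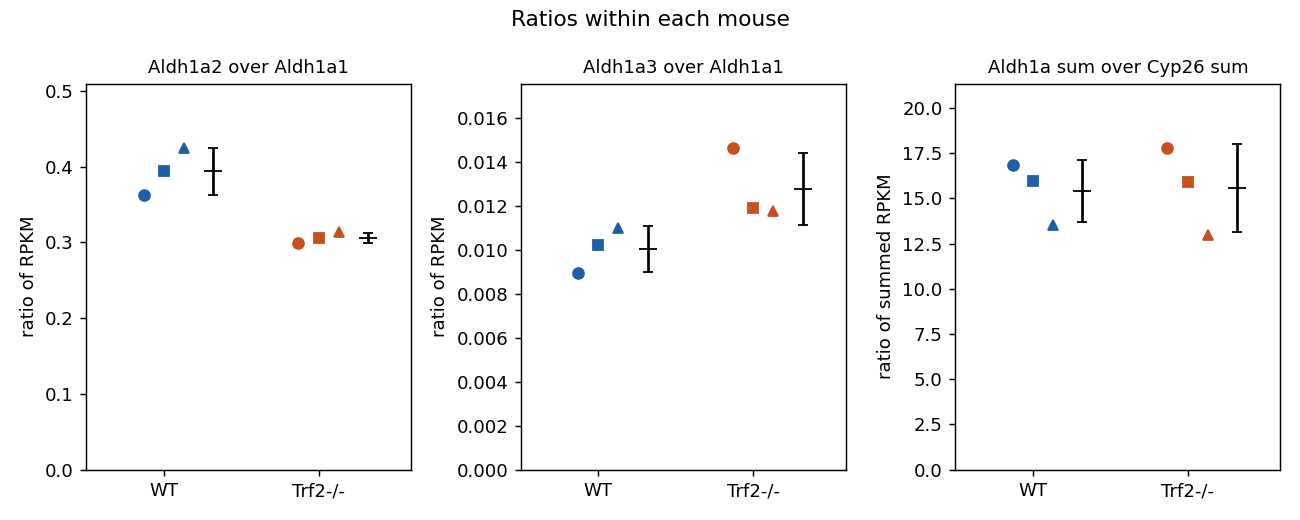
Ratios of length-scaled levels (RPKM) within each mouse, with circles, squares and triangles for mice 1, 2 and 3 and black bars for the mean ± SD. The ratio of Aldh1a2 to Aldh1a1 is lower in each Trf2-/- mouse, that of Aldh1a3 to Aldh1a1 is higher, and that of the 3 dehydrogenases to the 2 hydroxylases overlaps between genotypes.

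The enzymes of breakdown did not pass the test in either direction. Cyp26b1, on the minus strand of chromosome 6 from 84521938 to 84543740, was the main hydroxylase transcript and made up 85.9 ± 0.551% of the 2 in WT and 88.0 ± 1.42% in Trf2-/- testis. Its level was 78.5, 81.2 and 88.9 CPM in WT, against 80.0, 88.3 and 93.7 CPM in Trf2-/- testis, and the genotypes overlapped. Its log2 fold change was 0.07 (95% interval -0.09 to 0.24, adjusted p = 0.45, edgeR), so that a change outside the range from 0.941-fold to 1.18-fold lies beyond the interval.

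Cyp26a1 is a classical retinoic acid responsive gene, so its level is often read as a sign of retinoic acid signalling. It lies on chromosome 19 from 37772298 to 37776018. Its level was 4.77, 5.40 and 5.61 CPM in WT, against 3.57, 5.10 and 5.18 CPM in Trf2-/- testis, from 82 to 141 reads per mouse. Trf2-/- mouse 1 was the lowest, and the other Trf2-/- mice lay within the WT range. The log2 fold change was -0.20 (SE 0.17, 95% interval -0.58 to 0.19, adjusted p = 0.408, edgeR), and -0.04 without Trf2-/- mouse 1. The third hydroxylase, Cyp26c1, had 10, 4 and 8 reads in WT, against 10, 9 and 18 in Trf2-/- testis, and was not tested.

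Retinoic acid receptors bind direct repeats of a 6-base half-site. The 250 bases before each RefSeq start site (GRCm38.p6) were searched on both strands for pairs of half-sites in the same direction, each being AGGTCA or one of its variants AGTTCA, or else GGGTCA, or lastly GGTTCA, with 1, 2 or 5 bases between them. The spacing of 5 was found at 29 of 32851 start sites (0.0883%), that of 2 at 0.174% and that of 1 at 0.164%. Of the 9 members, 6 have sequences, with 10 start sites in all, and Aldh1a3, Rdh10 and Crabp2 have no entry. The only match among these was in Cyp26a1, with a spacing of 5, from 32 to 16 bases before the start site and on the strand opposite to the gene. Among the other retinoid genes listed here, the same kind of repeat was found in Rarb, which encodes a retinoic acid receptor, from 53 to 37 bases before a start site and on the strand of the gene. Both are shown with 6 bases on each side, read along the strand of the repeat, with the half-sites in capitals. They lie at chr19:37697770-37697798 (minus strand) for Cyp26a1 and chr14:16575507-16575535 (minus strand) for Rarb.

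Cyp26a1: caaattAGTTCAcccaaAGTTCAtcttta

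Rarb: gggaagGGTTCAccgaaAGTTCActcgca

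Rarb had few reads in these testes, 7, 7 and 4 in WT, against 5, 2 and 1 in Trf2-/- mice, and was not tested. A match to the letters describes the sequence only, and binding was not measured. The bases TATAAA, the core of the TATA box, were found on either strand at 12.4% of start sites and at 1 of the 10 of the members, in Cyp26b1. That match lies at positions -139 to -134 from the start site, on the strand of the gene. The cAMP response element TGACGTCA was found at 1.55% of start sites and at 0 of the 10.

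Uptake and binding genes did not pass the test. Stra6, on chromosome 9 from 57911595 to 58001803, had 11.6, 15.8 and 15.2 CPM in WT and 15.8, 18.0 and 15.8 CPM in Trf2-/- testis. WT mouse 1 was the lowest, and the ranges overlapped slightly. Its log2 fold change was 0.22 (SE 0.13, 95% interval -0.06 to 0.51, adjusted p = 0.207, edgeR), or 0.09 without WT mouse 1. Ccdc33 overlaps Stra6 on the opposite strand but shares 0 exonic bases with it.

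Crabp1, on chromosome 9 from 54612555 to 54620917, was at 10.1, 13.6 and 14.2 CPM in WT, against 10.95, 12.5 and 14.5 CPM in Trf2-/- testis. The genotypes lay on top of each other. The means were 12.6 ± 2.17 and 12.6 ± 1.77 CPM (SD, n = 3 mice each), with a log2 fold change of 0.00 and a 95% interval from -0.35 to 0.34 (adjusted p = 0.991, edgeR). The sign of this value changed between alternatives. Crabp2, on chromosome 3 from 87752588 to 87757298, had 4, 11 and 4 reads in WT, against 6, 8 and 3 in Trf2-/- testis, so a moderate difference was not detectable at this depth.

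The other genes of the pathway were read from lists of 44 gene names, of which 41 were found in the table and 31 were tested. Of these, 3 fell, 7 rose and 21 did not pass (edgeR, adjusted p under 0.05), so that 32.3% changed, against the 31.4% of all tested genes. Their median log2 fold change was 0.17. Stra6l, Rdh7 and Sdr16c5 were not found under these names and were not analysed here. Entries of these genes under other names were not searched for. Rdh11, Dhrs4, Adh1 and Rxra passed at an adjusted p under 0.05 in each of the 12 alternative fits.

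Rdh11, a retinaldehyde reductase, was the most abundant gene of these lists at 113 RPKM in WT testis. Its level was 410, 383 and 376 CPM in WT, against 250.01, 261 and 203 CPM in Trf2-/- testis. The fall of 38.8% (log2 fold change -0.71, SE 0.09, adjusted p = 0.000735, edgeR) was larger than that of any member. Dhrs4, a short-chain dehydrogenase that also reduces retinaldehyde, fell from 15.3, 11.5 and 13.2 to 7.90, 6.65 and 5.31 CPM. Its log2 fold change was -0.99 (SE 0.16, adjusted p = 0.00213, edgeR). Adh1, an alcohol dehydrogenase that oxidises retinol, rose from 7.28, 10.2 and 8.30 to 18.8, 12.1 and 15.6 CPM, with a log2 fold change of 0.85 (SE 0.18, adjusted p = 0.00707, edgeR). The genotypes did not overlap for any of the 3, and all 3 calls held with each mouse left out. Rdh13 rose with a log2 fold change of 0.31 (adjusted p = 0.0194, edgeR), a call lost without WT mouse 1, 2 or 3 or Trf2-/- mouse 2 (adjusted p = 0.0559, 0.0696, 0.0622 and 0.0618). In all, 2 of the 14 tested enzymes of this list fell and 2 rose (28.6%, against 31.4% of all tested genes), with a median log2 fold change of -0.01.

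For retinol storage, Lrat, which esterifies retinol, rose from 16.2, 15.6 and 15.2 to 19.4, 17.6 and 19.9 CPM (log2 fold change 0.27, adjusted p = 0.0312, edgeR). Dgat1, an acyltransferase that also makes retinyl esters, fell with a log2 fold change of -0.19 (adjusted p = 0.0413, edgeR). Both calls were weak. That of Lrat was lost without any single mouse except Trf2-/- mouse 2 (adjusted p from 0.0565 to 0.103), and that of Dgat1 without WT mouse 1 or 2 or Trf2-/- mouse 1 or 2 (adjusted p from 0.055 to 0.134). With library size scaling the log2 fold change of Dgat1 was -0.09 (adjusted p = 0.232, edgeR). DESeq2's Wald test gave Lrat an adjusted p of 0.0531 and Dgat1 0.0384. Fabp5, which binds retinoic acid among other lipids, rose with 0.33 (adjusted p = 0.0346, edgeR), and lost its call without WT mouse 1 or 2 or Trf2-/- mouse 1 (adjusted p = 0.112, 0.121 and 0.11) and with DESeq2's Wald test (adjusted p = 0.0531).

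Of the 6 receptor genes 4 were tested, and Rxra rose from 30.5, 31.7 and 30.6 to 35.2, 38.1 and 37.2 CPM. This is a log2 fold change of 0.25 (SE 0.06, adjusted p = 0.0114, edgeR), and the call held with each mouse left out. Rara, the receptor known from Sertoli and germ cells, had 0.17 (adjusted p = 0.154, edgeR). Rxrb, the most abundant receptor gene at 17.3 RPKM in WT testis, had 0.08 (adjusted p = 0.412, edgeR). No receptor gene was called lower (0 by edgeR, also at an unadjusted p under 0.05, and 0 by DESeq2). Among all tested genes edgeR called 20.2% lower and 11.2% higher, and counts over 4 genes say little beside these shares.

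Genes that respond to retinoic acid in germ cells or elsewhere were tested for 6 of 9. Kit, the receptor tyrosine kinase of differentiating spermatogonia, rose from 37.9, 40.5 and 39.5 to 44.3, 44.0 and 46.3 CPM (log2 fold change 0.19, adjusted p = 0.0302, edgeR). Ccnd2, a cyclin of differentiating spermatogonia, rose with 0.35 (adjusted p = 0.0357, edgeR). The call of Kit was lost without any single mouse except Trf2-/- mouse 3 (adjusted p from 0.0578 to 0.109), and that of Ccnd2 without WT mouse 1 or 2 or Trf2-/- mouse 1 or 2 (adjusted p from 0.0747 to 0.139). DESeq2's Wald test gave Kit an adjusted p of 0.064, which does not pass, and Ccnd2 0.0266. Stra8 had 29.3, 35.7 and 29.4 CPM in WT and 31.1, 37.4 and 47.2 CPM in Trf2-/- testis, which overlap (log2 fold change 0.28, adjusted p = 0.161, edgeR), and passed without Trf2-/- mouse 1 (adjusted p = 0.0451). Gm4969, the partner of Stra8 known as Meiosin, had 0.24 (adjusted p = 0.0724, edgeR) and passed without Trf2-/- mouse 1 (adjusted p = 0.0439). Rec8, the meiotic cohesin, had 0.10 (adjusted p = 0.71, edgeR). None of the 6 was called lower (0 by edgeR, also at an unadjusted p under 0.05, and 0 by DESeq2). Over all tested genes edgeR called 20.2% lower and 11.2% higher, and counts over 6 genes say little beside these shares.

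**Figure D4:**
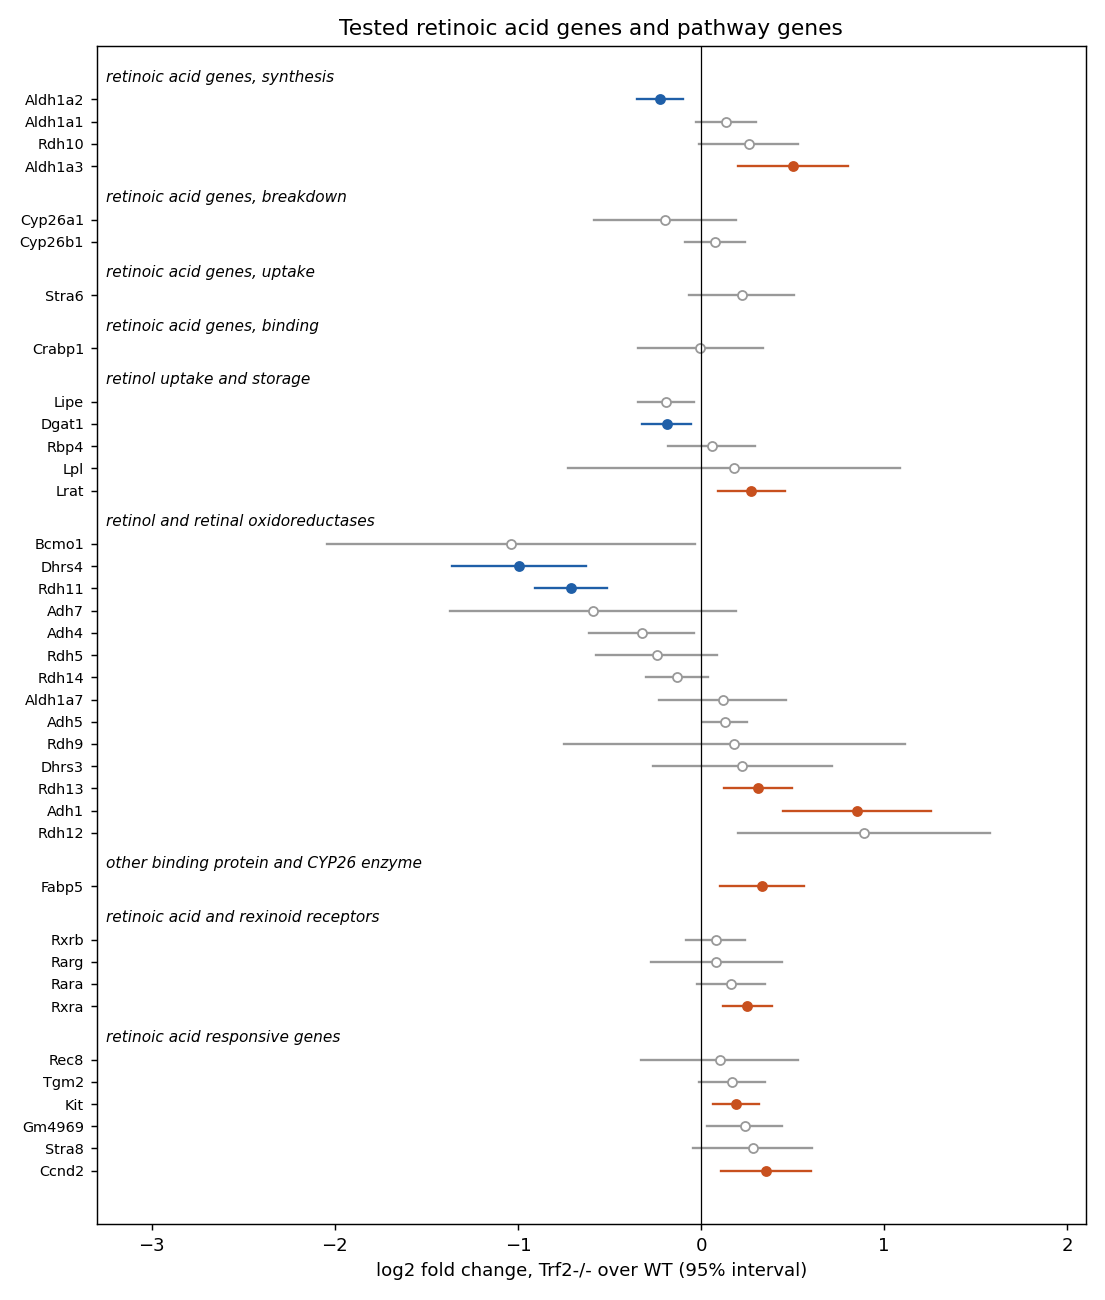
Log2 fold change of Trf2-/- over WT with its 95% interval for the tested retinoic acid genes and tested genes of the pathway lists. Filled orange points rose and filled blue points fell at an adjusted p under 0.05 (edgeR), and open grey points did not pass; the largest called changes are those of Dhrs4 (-0.99), Adh1 (0.85) and Rdh11 (-0.71).

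Some marker lists of testis cell types differed between the genotypes, in both directions. In a whole testis, fewer cells of a type and less RNA in each cell cannot be told apart. At an adjusted p under 0.05 (edgeR), 20.2% of all tested genes were lower and 11.2% higher. The pachytene spermatocyte list (Hspa2, Piwil1, Ccna1, Pou5f2, Adam3, Mybl1, Ldhc and Pgk2) fell in 8 of 8 genes, at a median of -0.98 on the log2 scale. The fall was uneven, from -0.16 for Mybl1, -0.17 for Hspa2 and -0.25 for Piwil1 to -1.63 for Ccna1. The sums of the list were 5542 to 6002 CPM in WT, against 3545 to 4417 CPM in Trf2-/- testis. Of the round spermatid list 5 of 7 tested genes fell (Acrv1, Izumo1, Acrbp, Catsper3 and Zpbp), and the sums were 327 to 340 and 156 to 219 CPM. As for Aldh1a2, the lowest sums of both lists were in Trf2-/- mouse 3. Their part in the decrease of Aldh1a2 was not tested.

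Genes of the Sertoli cell and macrophage lists that passed the test were all higher, where 11.2% of all tested genes were called higher. Of the Sertoli cell list, 5 of 10 tested genes rose (Amh, Cldn11, Fshr, Kitl and Clu), with sums of 1746 to 1863 CPM in WT and 2013 to 2228 CPM in Trf2-/- testis and a median log2 fold change of 0.21. Of the macrophage list 4 of 7 rose (Csf1r, Emr1, Lyz2 and C1qa), with sums of 162 to 187 CPM in WT mice. Emr1 did not pass with DESeq2's Wald test (adjusted p = 0.0741). Lyz2 was at 104 CPM in Trf2-/- mouse 1, against 37.3 and 37.9 CPM in Trf2-/- mice 2 and 3. In Trf2-/- mice 1, 2 and 3 the macrophage sums were 366, 221 and 186 CPM, the same order as for Aldh1a3, and the last of these lay within the WT range. The Sertoli cell sums in Trf2-/- mice 1, 2 and 3 were 2013, 2043 and 2228 CPM, the reverse of that order. Clu alone held 1228, 1226 and 1373 CPM of these sums. Of the 5 Sertoli cell genes that rose, Amh and Cldn11 had this reverse order. Fshr was highest in Trf2-/- mouse 1, and Kitl and Clu were lowest in mouse 2. The part of macrophages and Sertoli cells in the increase of Aldh1a3 was not tested.

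In the endothelial list 1 of 4 genes rose (Cdh5), with sums of 28.0 to 33.4 CPM in WT, against 35.4 to 44.2 CPM in Trf2-/- testis. In the peritubular myoid list 1 of 6 rose (Des) and in the Leydig cell list 2 of 8 (Hsd3b1 and Hsd17b3). The sums of both overlapped between genotypes, at 294 to 377 and 366 to 422 CPM for the myoid list and 261 to 442 and 282 to 416 CPM for the Leydig list. In the early spermatocyte list 2 of 6 rose (Sycp1 and Sycp3). The sums of this list did not overlap, at 1787 to 1816 CPM in WT and 1918 to 2008 CPM in Trf2-/- testis. Among all tested genes 11.2% were called higher, so these counts of 1 or 2 genes say little by themselves. Of the 8 spermatogonium genes 0 passed the test with edgeR or DESeq2, and 2 were higher at an unadjusted p under 0.05. Their sums were 227 to 237 CPM in WT, against 225, 239 and 297 CPM in Trf2-/- mice 1, 2 and 3, and the genotypes overlapped. For Uchl1, the most abundant of the spermatogonium genes, the log2 fold change was 0.09, with an adjusted p of 0.605 (edgeR). Reads of each list were found in every library, but Acrv1 and Catsper3 of the round spermatid list had 0 counts in Trf2-/- mouse 3. Rhox5 was not found under this name and was not analysed here. Acrbp, Izumo1, Csf1r and Sycp3 share 28.4%, 21.9%, 16.7% and 52.2% of their exonic bases with another gene, and their values are uncertain to that extent.

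**Figure D5:**
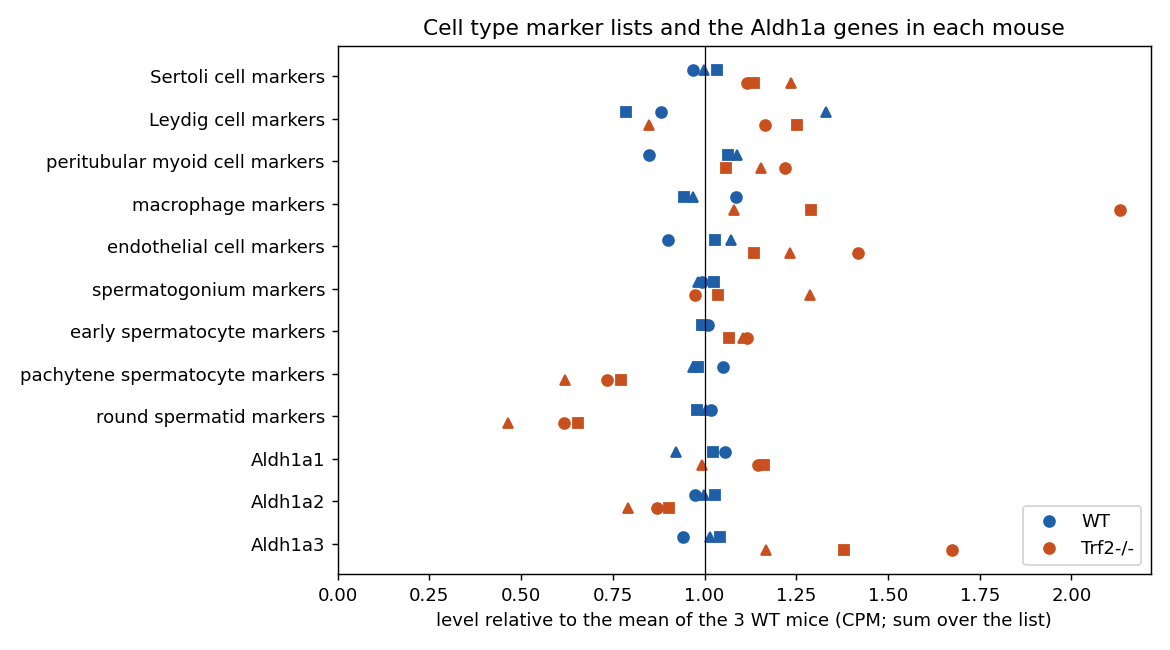
Summed CPM of each cell type marker list, and CPM of the 3 Aldh1a genes, relative to the mean of the 3 WT mice (horizontal axis, starting at 0), with WT mice in blue, Trf2-/- mice in orange and circles, squares and triangles for mice 1, 2 and 3. Pachytene spermatocyte and round spermatid sums lie below the WT mice in all 3 Trf2-/- mice, and the macrophage sum of Trf2-/- mouse 1 is 2.13 times the WT mean.

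The genes whose pattern over the 6 mice was most like that of the members that passed were found by the root mean square difference of log2 levels centred on the WT mean, over 13675 genes. For Aldh1a2 the nearest were Ankrd49 (difference 0.0142), 2700060E02Rik (0.0168) and Cct3 (0.0178), a subunit of the TCP1 chaperonin. For Aldh1a3 they were Adam23 (0.0335), Gstt1 (0.0445), a glutathione transferase, and S100a16 (0.0575). S100a16 itself did not pass the test (adjusted p = 0.0724, edgeR).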

How the data were processed

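Strand-specific, ribosome-depleted libraries of total testis RNA were sequenced by the authors as single-end reads of 50 bases and mapped to mm9/NCBI37 with Tophat. The submitters' processing notes name CASAVA 1.8.2, TopHat2 2.0.10, Bowtie2 2.1.0, HTSeq 0.5.4p3 and DESeq2 1.0.19. The deposited values used here are raw read counts per gene, without normalization, and the deposited gene length in bases, another value given with each gene. The strand setting of the counting and the annotation release are not given in the sources used here. The 12 columns of normalized values were not used.

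Counts were tested with edgeR 4.0.16 (R 4.3.3): filterByExpr with a minimum count of 10, TMM factors, glmQLFit, glmQLFTest and Benjamini-Hochberg adjustment over 16924 genes. CPM and RPKM use TMM-scaled library sizes. The standard error was derived from the fold change and the F statistic. With 3 mice in each group the smallest exact permutation p is 0.1, and the model fitted over all genes was used instead. The labels do not say whether mice of a genotype shared litters or days. The members, lists and tests were chosen with earlier results of these data known, and the lists do not share genes. The rule for named genes took the members, Tbpl1, the list genes with an adjusted p under 0.05 or, in a list with none, the gene with the highest level, and the 3 nearest patterns of each member that passed, among genes with a mean of at least 50 counts and with 0.5 CPM added before taking logs. Aldh1a7, Cyp26c1, Rara, Rarb, Rxrb, Stra8, Gm4969, Rec8 and Ccdc33 fall outside this rule and were chosen after their values were seen. The values of 1 list gene, counted among those tested, are not reported here. Coordinates of genes are those deposited (NCBIM37), and for each member they were the same in the GENCODE annotation of that build. Upstream sequences are from RefSeq on GRCm38.p6. Alternatives replaced TMM by library size alone or by the size factors of DESeq2, used the Wald test of DESeq2 1.42.0, dropped the filter down to 1 count or raised it to 10 reads for each mouse, added a block for the replicate number, left out single mice, or asked for an adjusted p of 0.01 and a fold change of at least 2. The tests were checked on simulated counts. Pairs of libraries of 1 genotype differed by more than sampling noise, with a chi-square of at least 3.32 per degree of freedom.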

Additional observations from a re-analysis of the deposited data

How the results depend on the processing

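Over all tested genes, the number called lower was 727 and the number called higher 103 at a fold change of at least 2. The number called higher was 4267 with scaling by library size, 481 at an adjusted p under 0.01 and between 780 and 1903 with each mouse left out. Among the retinoic acid genes, 0 were called lower with library size scaling, at an adjusted p under 0.01 or at 2-fold, and 0 to 1 with each mouse left out. Those called higher were 3 with library size scaling, 0 at an adjusted p under 0.01 or at 2-fold, and 0 to 2 with each mouse left out. Of the other pathway genes, 0 were called in either direction at 2-fold. Those called higher were 12 with library size scaling, 4 with DESeq2's Wald test, 4 with the replicate number as a block, 1 at an adjusted p under 0.01 and 2 to 7 with each mouse left out. The log2 fold change of Crabp1, which is close to 0, changed sign with library size scaling (0.092), without a filter (0.00015), with the replicate block (0.0053) and with single mice left out (from -0.14 to 0.083). The other tested members kept their direction under each alternative. A stricter threshold leaves fewer calls by construction, and the causes of the other differences were not tested. Same-numbered mice did not deviate together (correlations across genes from -0.08 to -0.06, and 0 of 6 mice correlated best with their own number), so the numbers were not taken as pairs. With the block, 3094 genes were called lower and 1486 higher, and both members kept their calls (Aldh1a2 adjusted p = 0.0228 and Aldh1a3 0.0429, edgeR). Among the other pathway genes, the block ended the calls of Lrat (adjusted p = 0.0594), Dgat1 (0.0729), Fabp5 (0.0615), Kit (0.0615) and Ccnd2 (0.0756) and added that of Gm4969 (0.0374, edgeR). Without the filter the log2 fold change of Crabp2 was 0.06, with an adjusted p of 0.955 (edgeR), and depth limits this value.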
